A study of Mus musculus with 6 samples.

Results

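The genes of glucose metabolism and of the response to low oxygen were examined in myeloid cells sorted from the mouse pancreas. They were chosen by name, with earlier results of these data known. The module of 40 gene symbols covers glucose transporters, the enzymes of glycolysis, the lactate genes and the pentose phosphate pathway. It also covers regulators at the phosphofructokinase and pyruvate steps, and the hypoxia-inducible factor with its hydroxylases and targets. The 40 symbols matched 41 of the 21780 genes in the count table, because Aldoa is listed under 2 Ensembl identifiers. All 41 are protein-coding and all 41 entered the test, but the second Aldoa entry (ENSMUSG00000114515, chr7:126800790-126809108 in GRCm38, minus strand) had 0, 36 and 15 counts in the PBS libraries and 0 in every WGP library. It is counted below among the members, without a fold change.

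Glycolysis splits glucose into pyruvate in the cytosol, and lactate dehydrogenase turns pyruvate into lactate, which is exported together with a proton. The pentose phosphate pathway branches off after the first step and yields NADPH and ribose phosphate. HIF-1, a transcription factor whose alpha subunit is degraded while prolyl hydroxylases have oxygen to work with, raises the transcription of many glycolytic genes. Inflammatory activation of monocytes and macrophages is known to favour glycolysis, and the same shift has been described for trained immunity, the lasting heightened response that β-glucan can induce in innate cells.

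The libraries came from wild-type C57BL/6 mice of both sexes, 6 to 8 weeks old. The WGP group had received a single intraperitoneal dose of 1 mg of WGP, a particulate whole β-glucan from yeast, in 200 μl of PBS. The PBS group had received 200 μl of the vehicle alone. After 7 days the pancreas was digested, viable CD45+CD11b+ cells were sorted by flow cytometry and polyadenylated RNA was sequenced, with 3 libraries per group. No gene had been altered in either group, and CD11b is carried by monocytes, macrophages, neutrophils and other cells, so each library is a mixture. GEO's labels do not say how many animals went into a library, and the study describes its samples as independent animals.

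Libraries held between 35334645 and 43341834 counts, and between 12147 and 12860 genes with a count. Leaving the very lowest counts aside, low counts piled up at 19 to 41 per gene, so a count near that value may stand for a single RNA molecule. The counts of 6 members were less than 10 times that value in at least 1 library. Summed over Y-linked genes, PBS 2 and PBS 3 held 8972 and 10063 counts and the other 4 libraries 0 or 1, so the sexes were not balanced between the groups. The 2 sorting markers Ptprc (CD45) and Itgam (CD11b) together reached 1203 to 1231 CPM (read counts scaled to library size) with PBS and 1925 to 2135 with WGP, and both rose.

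Summed marker RNA of several cell types differed between the groups. Markers of resident macrophages summed to 9362 to 19218 CPM with PBS and 3720 to 5765 with WGP, and 8 of 11 fell. Markers of Ly6C-high monocytes summed to 2671 to 4232 CPM with PBS and 3865 to 4439 with WGP, and 5 of 8 rose while 1, F13a1, fell. F13a1 held much of the PBS sums, at 1335, 2728 and 3474 CPM, against 422, 347 and 503 CPM with WGP. The median log2 fold change of the 8 markers was 1.92. Neutrophil markers spanned 2444 to 6583 CPM and 2705 to 2874 CPM, with 2 of 11 higher and 1 lower past the test. Among markers of other cells, acinar genes summed to 1363 to 5204 CPM against 364 to 610 with WGP, with 8 of 9 lower past the test. B cell genes summed to 361 to 2414 CPM against 86.8 to 169, with 5 of 5 lower past the test, and a list of genes induced by tissue dissociation summed to 24226 to 31470 CPM against 8911 to 12218, with 7 of 10 lower past the test. Fibroblast genes summed to 83.4 to 175 CPM with PBS and 33.7 to 1817 CPM with WGP, with WGP 2 the high library, and 0 of 6 passed the test. Erythroid genes summed to 104 to 114 CPM with PBS and 31.2 to 207 CPM with WGP and 0 of 6 tested passed, while 1 of 6 T cell genes tested and 1 of 5 endothelial genes rose. Platelet and megakaryocyte genes summed to 263 to 454 CPM with PBS and 11.8 to 19.96 CPM with WGP. Pf4 made up most of these sums, at 261, 380 and 450 CPM with PBS and 14.1, 9.72 and 15.6 CPM with WGP. Of the 6 genes, Gp9 and Gp1bb were at 0 in all libraries, 4 were tested and 1 fell. By sign alone, 2 of the 4 tested were higher and 2 lower with WGP. Of 6 eosinophil genes 1 fell, of 6 NK cell genes 1 rose and 1 fell, and of 7 dendritic cell genes 1 rose and 1 fell. Proliferation genes summed to 312 to 632 CPM with PBS and 321 to 360 with WGP, and of 10, 0 rose and 1 fell. These differences accompany each gene group described below, and their part in those results was not tested. In a bulk library, a different mix of cells and a different amount of RNA per cell cannot be told apart.

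Most of the module, which was drawn up with earlier results of these data known, was higher after WGP. Of the 41 members, 32 rose (78.0%), where 7.54% of the 14429 genes tested rose, and 0 fell, where the background was 6.81% (edgeR quasi-likelihood test, Benjamini-Hochberg adjusted p of at most 0.05). Of the members, 27 rose at least 2-fold (65.9%), against a background of 4.53%, and 0 fell by as much, against 4.96%. In 33 members every WGP library lay above every PBS library (80.5%; 16.0% of all genes tested), and in 1 member, Pfkm, every WGP library lay below (16.1% of all genes tested). The median log2 fold change was 1.29 over the members and -0.05 over all genes tested. At an unadjusted p under 0.05, 33 members were higher and 2 were lower. Slc2a3 and Pfkm are the 2 lower ones, and DESeq2 called 1 member lower where limma-voom called 0.

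Together the members took 0.560%, 0.488% and 0.455% of all counts in the 3 PBS libraries and 1.17%, 1.30% and 1.22% in the 3 WGP libraries. The groups did not overlap, and the mean share was 2.45 times as large with WGP (0.501% ± 0.0535 against 1.23% ± 0.0663, SD, n = 3 each). The exact two-sided permutation p was 0.1, the smallest that 3 against 3 libraries allows. The gain was uneven along the pathway. The HIF genes had a median log2 fold change of 2.46 and 7 of 7 rose. The lactate genes had a median of 1.80 and 3 of 4 rose. Glucose uptake and glycolysis had a median of 1.64 and 16 of 19 rose. The pentose phosphate genes had a median of 0.66 and 4 of 7 rose (1 of 7 without PBS 2, WGP 1 or WGP 3), and the PFKFB and pyruvate dehydrogenase kinase genes had a median of 0.56 and 2 of 4 rose (1 of 4 without PBS 2, PBS 3 or WGP 3). Differences between these medians were not tested.

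**Figure D1:**
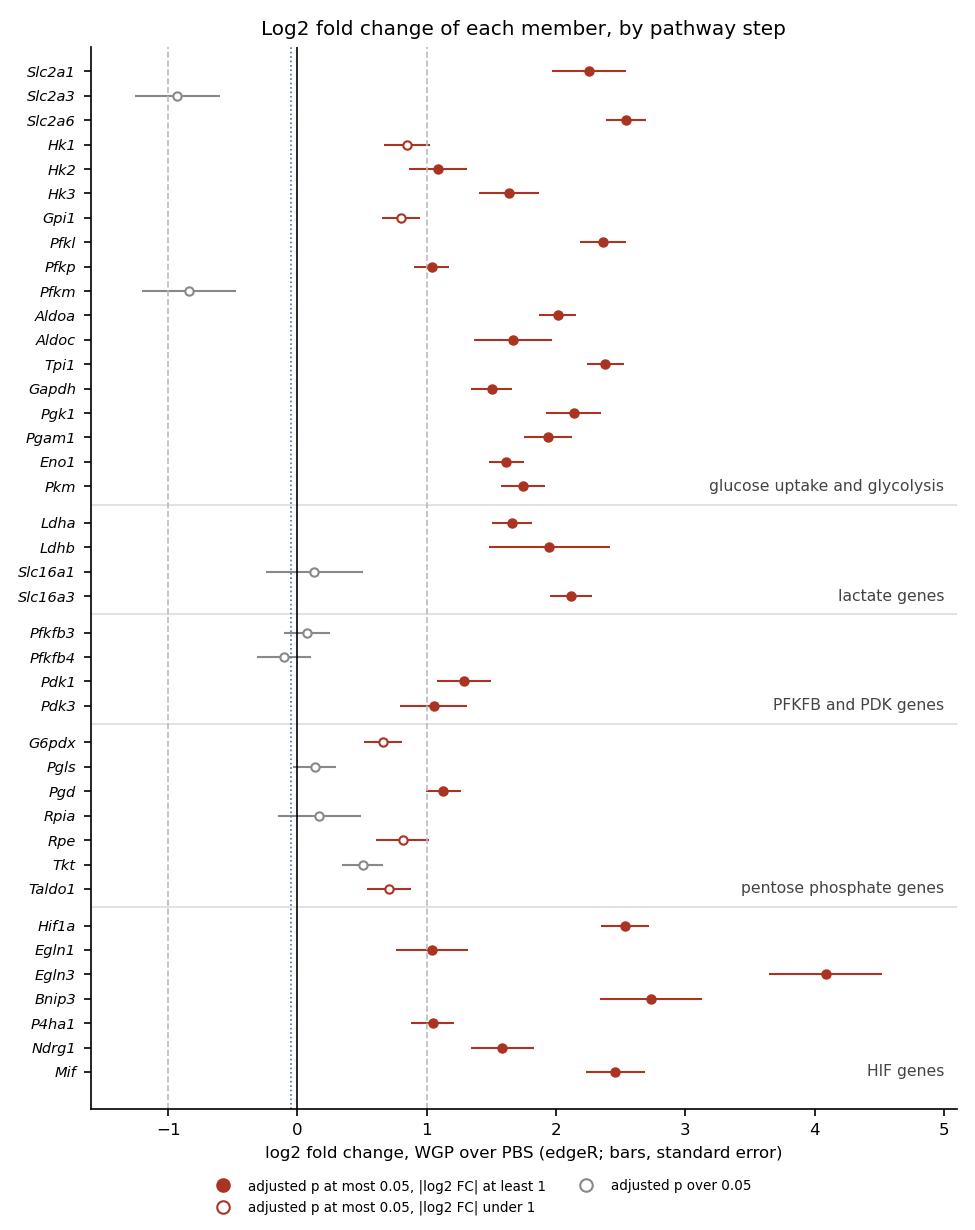
Log2 fold change of each member (WGP over PBS, x axis; bars, standard error; 3 libraries per group), grouped by pathway step; filled red points passed the test at 2-fold or more, open red points passed it below 2-fold and grey points did not pass. The dotted line marks the median of all genes tested (-0.05), the dashed lines mark 2-fold, and the second Aldoa entry is not drawn. Egln3 and Bnip3 lie furthest right, Egln3 at 4.08, while Slc2a3 and Pfkm lie left of 0.

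All 7 HIF genes rose at least 2-fold, and 2 of them, Egln3 and Bnip3, had the highest log2 fold changes of the module. They comprise Hif1a, which encodes the oxygen-regulated alpha subunit of HIF-1, the prolyl hydroxylase genes Egln1 and Egln3, and 4 genes that HIF-1 is known to induce. Hif1a (chr12:73901375-73947530, plus strand) stood at 128, 125 and 129 CPM in the PBS libraries and at 842, 811 and 559 CPM in the WGP libraries. The PBS libraries were nearly equal, and the lowest WGP library was still far above them. Its log2 fold change was 2.53 (SE 0.18, adjusted p = 1.9e-05), a 5.79-fold rise. These are RNA levels, and the control of HIF-1α by oxygen acts on the protein.

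Egln3 encodes PHD3, a hydroxylase that marks HIF-1α for destruction and is itself a HIF target. Its levels were 0.832, 2.00 and 1.44 CPM with PBS and 21.2, 32.4 and 19.0 CPM with WGP. Per kilobase of exon it was the lowest of all 41 members with PBS (0.536 CPM per kb) and ranked 33rd with WGP (9.10 CPM per kb). The log2 fold change was 4.08 (SE 0.44, adjusted p = 0.000178), or 17.0-fold. The PBS values rest on 32, 78 and 59 counts, which is 0.78 to 2.79 times the level at which low counts piled up in those libraries, so the size of this fold is poorly fixed while the groups lay far apart. Egln1 encodes PHD2, the main oxygen-sensing hydroxylase, and stood at 28.8, 54.4 and 37.3 CPM with PBS and 55.2, 101 and 91.1 CPM with WGP. The lowest WGP library barely exceeded the highest PBS library. The log2 fold change of Egln1 was 1.04 (SE 0.28, adjusted p = 0.0318), and it missed the threshold in 4 of 6 fits without 1 library (PBS 1, PBS 3, WGP 2 or WGP 3), with adjusted p between 0.0697 and 0.106.

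The 4 further HIF targets serve different ends. Bnip3, a mitochondrial protein that promotes mitophagy, measured 3.36, 6.80 and 6.65 CPM with PBS and 25.9, 56.8 and 29.1 CPM with WGP. WGP 2 was about double its fellow libraries, yet all WGP libraries were well above all PBS libraries, and the log2 fold change was 2.73 (SE 0.40, adjusted p = 0.00114). The PBS counts of Bnip3 were only 3.15 to 9.71 times the level at which low counts piled up, so the size of this fold is poorly fixed too. Mif, a secreted cytokine made by macrophages, measured 20.03, 13.6 and 24.0 CPM against 93.2, 117 and 106 CPM, with a log2 fold change of 2.46 (SE 0.23, adjusted p = 7.67e-05). Per kilobase Mif moved from rank 14 to rank 6 of the 41 members. Ndrg1, a stress-induced gene, rose by 1.58 on the log2 scale (SE 0.24), from 19.6 ± 3.08 to 58.9 ± 16.9 CPM (SD, n = 3). P4ha1, a collagen prolyl hydroxylase subunit, rose by 1.05 (SE 0.17), from 75.5 ± 8.62 to 156 ± 24.3 CPM. Reads of Bnip3 and Mif can also match other genes, since 46.3% and 60.4% of the 75-base windows of their transcripts occur in transcripts of other annotated genes, so their levels carry that uncertainty.

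**Figure D2:**
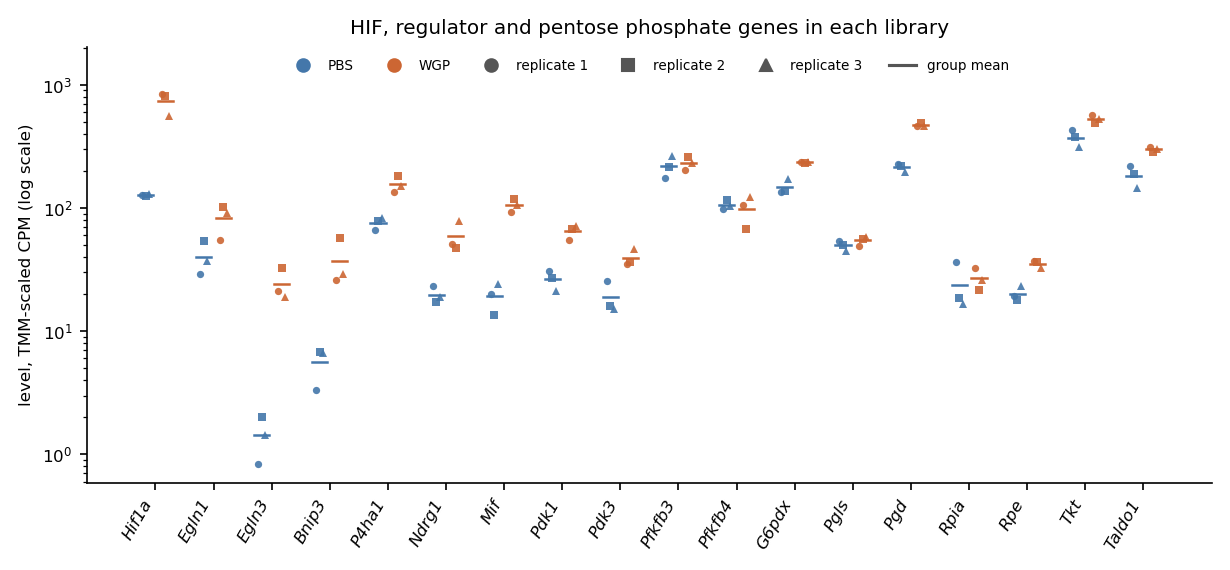
Level of each HIF, regulator and pentose phosphate member in every library (y axis, CPM scaled by TMM, log scale; blue, PBS; orange, WGP; marker shape, replicate; line, mean of 3 libraries). Hif1a, Egln3, Bnip3, Mif, Pgd and G6pdx show separated groups, while Pfkfb3, Pfkfb4, Pgls and Rpia overlap.

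Promoters of these genes are shown because the HIF genes moved together and HIF-1 binds short motifs with the core ACGTG or GCGTG. Both motifs were searched on both strands in the 250 bases before each transcription start of the RefSeq annotation of GRCm38.p6. CACGTG holds ACGTG on either strand and is therefore counted as 2 sites. The 2 HIF genes of largest log2 fold change (Egln3 and Bnip3) and the lactate exporters (Slc16a3, which rose, and Slc16a1, which did not pass the test) are printed 5′ to 3′ on the strand of the gene, with the matches in capitals. They lie at chr12:54203875-54204124 (minus strand) for Egln3, chr7:138909507-138909756 (minus strand) for Bnip3, chr11:120948817-120949066 (plus strand) for Slc16a3 and chr3:104638414-104638663 (plus strand) for Slc16a1.
Egln3: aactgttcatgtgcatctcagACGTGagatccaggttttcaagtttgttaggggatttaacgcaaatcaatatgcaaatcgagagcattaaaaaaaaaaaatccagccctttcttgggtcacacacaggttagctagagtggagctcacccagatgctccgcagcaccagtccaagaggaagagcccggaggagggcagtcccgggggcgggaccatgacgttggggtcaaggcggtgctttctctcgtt
Bnip3: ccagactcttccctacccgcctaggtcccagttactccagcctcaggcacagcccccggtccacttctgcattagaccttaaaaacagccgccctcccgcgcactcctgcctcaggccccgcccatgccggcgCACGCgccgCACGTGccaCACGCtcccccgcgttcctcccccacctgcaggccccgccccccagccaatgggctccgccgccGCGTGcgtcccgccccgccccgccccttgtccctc
Slc16a3: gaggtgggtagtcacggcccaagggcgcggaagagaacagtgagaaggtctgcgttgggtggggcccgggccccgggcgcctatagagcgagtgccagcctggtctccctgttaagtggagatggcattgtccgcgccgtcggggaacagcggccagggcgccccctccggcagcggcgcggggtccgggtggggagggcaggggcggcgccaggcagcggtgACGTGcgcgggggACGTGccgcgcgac
Slc16a1: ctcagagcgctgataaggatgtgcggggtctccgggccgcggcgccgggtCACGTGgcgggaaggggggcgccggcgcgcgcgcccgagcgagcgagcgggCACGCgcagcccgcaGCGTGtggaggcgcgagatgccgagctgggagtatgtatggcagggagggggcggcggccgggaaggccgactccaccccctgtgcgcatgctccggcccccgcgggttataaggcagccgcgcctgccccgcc

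Egln3 holds 1 match, Bnip3 5, Slc16a3 2 and Slc16a1 4, so the exporter gene that did not pass the test holds more matches than the one that rose. The table listed 52 starts for 38 of the 40 symbols, with none for Slc2a3 and Ndrg1, and starts of 1 gene can share bases. A match was present in 42 of these 52 windows (80.8%). It was present in 12679 of all 32851 windows (38.6%) and in 52.6% of the 14311 windows of tested genes. Member windows were also richer in G and C, with a median of 60.4% against 52.4% over all windows and 59.2% over those of tested genes. Between 54.4% and 66.6% G and C, the interquartile range of the member windows, 23 of 27 member windows (85.2%) and 57.3% of 6211 windows of tested genes held a match. Within the members, a match was found for 27 of 31 genes that rose (87.1%) and for 7 of 7 that did not pass the test (100%). Tpi1, Mif, Rpe and Gpi1 are the 4 that rose with no match. A match is a string of letters and does not show that the factor bound there.

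Transcripts for nearly every step from glucose entry to pyruvate rose. For glucose entry, Slc2a1 encodes GLUT1, the widely expressed glucose transporter. It stood at 88.1, 60.2 and 42.3 CPM with PBS and 299, 389 and 222 CPM with WGP, a log2 fold change of 2.26 (SE 0.28, adjusted p = 0.000489). Slc2a6, which encodes GLUT6, a transporter of the same family, stood at 36.5, 46.0 and 44.5 CPM with PBS and 256, 234 and 248 CPM with WGP. The replicates of Slc2a6 were tight in both groups, and the log2 fold change was 2.54 (SE 0.15, adjusted p = 8.45e-06). Slc2a3 encodes GLUT3, a high-affinity transporter, and went the other way. Its levels were 116, 76.0 and 53.7 CPM with PBS and 49.2, 24.98 and 54.5 CPM with WGP, so WGP 3 lay just above PBS 3 and the groups overlapped. The log2 fold change of Slc2a3 was -0.93 (SE 0.33, adjusted p = 0.0942), and it passed the threshold without PBS 3 (-1.16, adjusted p = 0.0432) and with DESeq2 (-0.94, adjusted p = 0.0443).

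The first phosphorylation is made by the hexokinases, and all 3 member genes rose. Hk3, the isoenzyme typical of myeloid cells, stood at 127, 156 and 173 CPM with PBS and 337, 635 and 447 CPM with WGP, with a log2 fold change of 1.64 (SE 0.23, adjusted p = 0.000969). Hk2, the inducible isoenzyme, rose by 1.09 (SE 0.22) from 118 ± 14.2 to 251 ± 84.5 CPM, and WGP 2 was the high library at 347 CPM. The call of Hk2 was lost in the fit that accounts for Y-linked counts, where its log2 fold change was 1.08 (adjusted p = 0.0683). Hk1, the broadly expressed isoenzyme, rose by 0.85 (SE 0.18), which is 1.80-fold. Gpi1, which isomerises glucose 6-phosphate, rose by 0.80 (SE 0.14, adjusted p = 0.00407), from 509 ± 50.6 to 887 ± 42.5 CPM. Hk1 and Gpi1 were the only 2 of the 16 genes of this section that rose less than 2-fold.

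Phosphofructokinase-1 commits sugar to glycolysis and is built from liver, platelet and muscle subunits. Pfkl, the liver subunit, stood at 56.0, 49.7 and 53.8 CPM with PBS and 212, 318 and 290 CPM with WGP. No PBS library came near the WGP libraries, and the log2 fold change was 2.36 (SE 0.18, adjusted p = 2.39e-05). Pfkp, the platelet subunit, stood at 134, 128 and 139 CPM with PBS and 292, 281 and 252 CPM with WGP, a log2 fold change of 1.04 (SE 0.14, adjusted p = 0.000589). Pfkm, the muscle subunit, stood at 21.5, 12.6 and 12.4 CPM with PBS and 11.1, 6.70 and 8.21 CPM with WGP. The 3 WGP libraries of Pfkm were the lower ones, but the log2 fold change of -0.84 (SE 0.36) did not pass the test (adjusted p = 0.173), and in WGP 2 the count was only 8.69 times the level at which low counts piled up.

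From the aldolase step down to pyruvate, all enzyme genes but the second Aldoa entry rose, between 2.83-fold and 5.21-fold. Aldoa, the main aldolase outside liver and brain, stood at 380, 340 and 347 CPM with PBS and 1384, 1434 and 1490 CPM with WGP. Per kilobase of exon it stood at 122 CPM per kb with PBS and 493 CPM per kb with WGP, the highest of the members. Its log2 fold change was 2.01 (SE 0.14, adjusted p = 1.86e-05). Tpi1, triosephosphate isomerase, stood at 89.0, 78.4 and 83.3 CPM with PBS and 406, 452 and 448 CPM with WGP, and its log2 fold change of 2.38 (SE 0.14) had the smallest adjusted p of the members (7.92e-06). Pkm, pyruvate kinase, came second in level per kilobase of exon, at 103 CPM per kb with PBS and 345 CPM per kb with WGP. Its levels of 598, 520 and 427 CPM became 1614, 1858 and 1708 CPM, a log2 fold change of 1.75 (SE 0.17, adjusted p = 9.8e-05). The counts do not separate the M1 and M2 splice forms of Pkm. Aldoc, the brain aldolase, was scarce, at 7.75 ± 1.75 and 24.6 ± 4.94 CPM, and its lowest PBS count was 6.15 times the level at which low counts piled up.

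The other 4 enzyme genes of this stretch share much of their sequence with processed pseudogenes. Pgk1 rose by 2.14 on the log2 scale (SE 0.21), Pgam1 by 1.93 (SE 0.19), Eno1 by 1.62 (SE 0.13) and Gapdh by 1.502 (SE 0.16). Their adjusted p lay between 3.91e-05 for Eno1 and 0.000176 for Gapdh. Pgk1 is X-linked, and its log2 fold change was 1.84 with the Y-linked counts as a covariate. Of the 75-base windows of each transcript, 80.3% for Gapdh, 67.5% for Pgk1, 65.4% for Eno1 and 40.6% for Pgam1 also occur in transcripts of other annotated genes (121 of them for Gapdh). How the authors counted reads that match several genes is not given in the sources used here, so levels of these 4 genes are uncertain. Gapdh, often used as a constant reference in RNA assays, stood at 442, 371 and 328 CPM with PBS and 1000, 1150 and 1083 CPM with WGP, and every WGP library was more than double every PBS library.

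**Figure D3:**
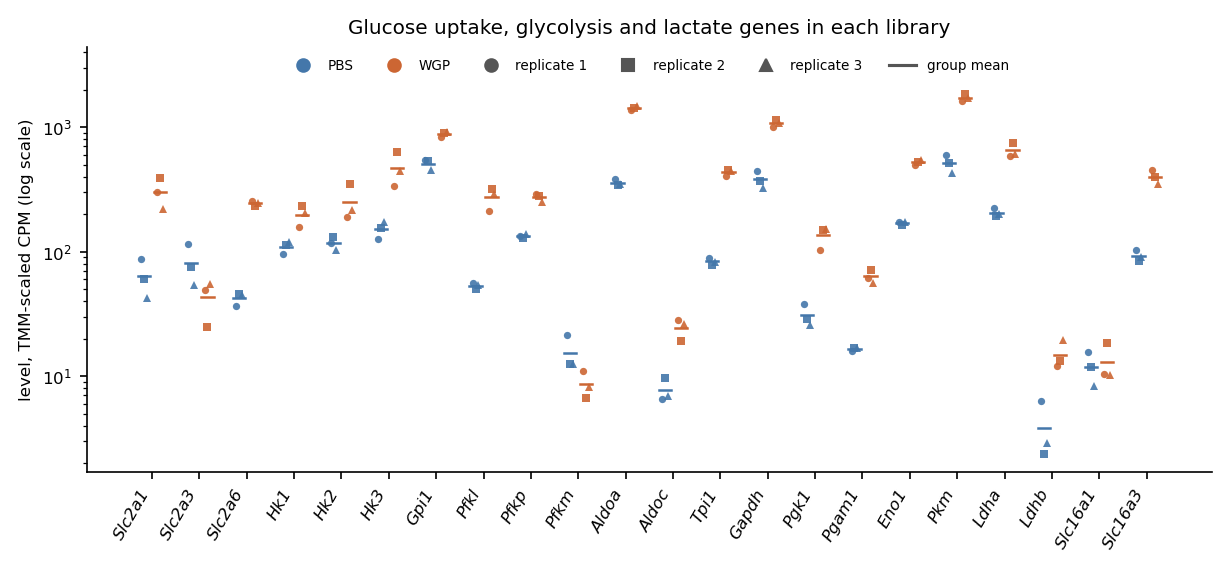
Level of each member from glucose uptake to lactate export in every library (y axis, CPM scaled by TMM, log scale; blue, PBS; orange, WGP; marker shape, replicate; line, mean of 3 libraries). Most genes show the 3 WGP libraries above the 3 PBS libraries, whereas Slc2a3 and Slc16a1 overlap and Pfkm lies lower with WGP.

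Of the lactate genes, 3 of 4 rose. Ldha, whose subunit favours the making of lactate, stood at 225, 194 and 199 CPM with PBS and 587, 752 and 615 CPM with WGP, with a log2 fold change of 1.66 (SE 0.16, adjusted p = 8.35e-05). Ldhb, whose subunit favours the use of lactate, was far lower, at 6.27, 2.36 and 2.91 CPM with PBS and 12.02, 13.1 and 19.4 CPM with WGP. Its log2 fold change of 1.95 (SE 0.47, adjusted p = 0.0191) rests on PBS counts only 3.29 to 5.88 times the level at which low counts piled up, and without PBS 2, PBS 3 or WGP 3 the adjusted p was 0.0696, 0.0576 and 0.097. With the Y-linked counts as a covariate its log2 fold change was 1.24 (adjusted p = 0.209). The 2 exporters parted. Slc16a3 encodes MCT4, the lactate exporter of glycolytic cells, and stood at 103, 83.7 and 89.9 CPM with PBS and 456, 396 and 348 CPM with WGP, with a log2 fold change of 2.12 (SE 0.16, adjusted p = 2.4e-05). Slc16a1 encodes MCT1, which carries lactate either way. It stood at 15.7, 11.8 and 8.31 CPM with PBS and 10.4, 18.6 and 10.2 CPM with WGP, with overlapping groups and a log2 fold change of 0.13 (SE 0.38, adjusted p = 0.883) whose sign turned without PBS 3 (-0.07) or WGP 2 (-0.21).

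Unequal changes within families moved the shares of some isoforms. Shares were computed from counts per kilobase within each of 8 families, over 19 isoforms, and tested by exact two-sided permutation over libraries, where 0.1 is the smallest possible p. Among the phosphofructokinase-1 subunits, Pfkl held 33.8%, 35.8% and 36.4% in the PBS libraries and 55.8%, 67.5% and 67.1% in the WGP libraries, a gain of 28.1 percentage points (permutation p = 0.1). Pfkp went from 44.4% ± 3.53 to 32.4% ± 5.16 and Pfkm from 20.3% ± 4.90 to 4.16% ± 1.53 (SD, n = 3). So Pfkp held the largest share in every PBS library and Pfkl in every WGP library. With the length of the longest coding transcript in place of all exons, Pfkl held 27.4% to 27.6% with PBS and 43.3% to 54.9% with WGP, and Pfkp was then still ahead in WGP 1 at 53.7%. Among the glucose transporters, Slc2a3 held 30.4%, 24.97% and 22.2% with PBS and 3.95%, 1.84% and 5.08% with WGP (permutation p = 0.1). Slc2a1 and Slc2a6 took up the rest, but the groups overlapped for the share of each (permutation p = 0.2), and for Slc2a6 they were apart with the longest coding transcript (permutation p = 0.1).

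Hk3 held 55.7% ± 3.79 of the hexokinase RNA with PBS and 66.1% ± 1.29 with WGP, and Hk1 held 17.4% ± 0.491 and 12.2% ± 1.48 (SD, n = 3, groups apart, permutation p = 0.1 for both). Slc16a3 held 84.6%, 85.5% and 90.0% of the 2 exporters with PBS and 97.3%, 94.6% and 96.6% with WGP (permutation p = 0.1). These shares leave out Slc16a7, a monocarboxylate carrier gene outside the module, which stood at 69.9 ± 34.7 CPM with PBS and 33.4 ± 6.84 CPM with WGP. In other families the shares overlapped between the groups. Aldoa held 98.1% ± 0.511 and 98.5% ± 0.319 of the aldolase RNA, and Ldha held 96.3% ± 1.64 and 95.4% ± 1.41 of the lactate dehydrogenase RNA, so both remained almost alone in their families. Pdk1 held 31.9% ± 3.65 and 35.2% ± 2.21 against Pdk3. Pfkfb3 held 56.7% ± 4.89 and 60.4% ± 9.17 against Pfkfb4, with WGP 2 high at 71.0%, and without that library its share was 1.59 points lower with WGP than with PBS.

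**Figure D4:**
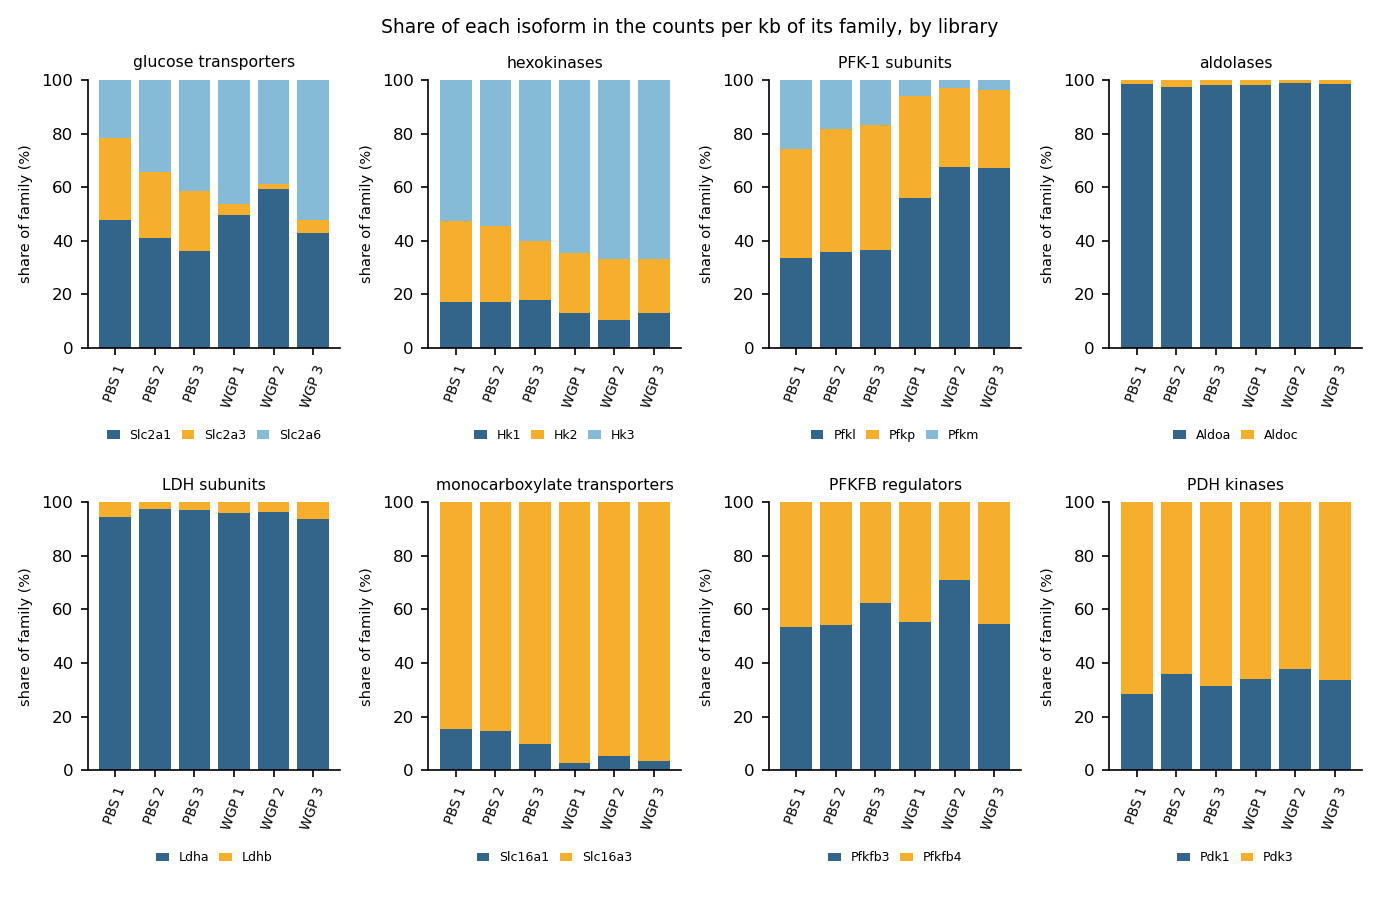
Share of each isoform in the summed counts per kilobase of its family (y axis, percent; bars, the 6 libraries; colours, isoforms), for 8 families of members. Pfkl passes from 33.8% to 36.4% with PBS to 55.8% to 67.5% with WGP, Slc2a3 shrinks to at most 5.08%, and Aldoa and Ldha fill their families in every library.

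The regulators among the members split by kind. Pfkfb3 and Pfkfb4 encode bifunctional enzymes that set the level of fructose 2,6-bisphosphate, the main activator of phosphofructokinase-1. Pfkfb3 stood at 175, 216 and 264 CPM with PBS and 203, 258 and 230 CPM with WGP, so the WGP libraries fell inside the PBS range (log2 fold change 0.08, SE 0.18, adjusted p = 0.846). Pfkfb4 stood at 98.7, 117 and 103 CPM with PBS and 105, 68.0 and 122 CPM with WGP (log2 fold change -0.11, SE 0.21, adjusted p = 0.806). The sign of neither gene was stable when 1 library was left out. Pdk1 and Pdk3, kinases that switch off pyruvate dehydrogenase and so keep pyruvate out of the mitochondrial cycle, rose. Pdk2 and Pdk4, kinases of the same family outside the module, were lower with WGP and did not pass the test. The log2 fold change was -0.57 for Pdk2 (adjusted p = 0.336) and -3.41 for Pdk4 (adjusted p = 0.361). Pdk2 stood at 19.0 CPM with PBS and 12.8 CPM with WGP, and Pdk4 was scarce, at 2.45 and 0.228 CPM. Pdk1 stood at 31.0, 27.1 and 21.1 CPM with PBS and 54.7, 67.1 and 71.9 CPM with WGP, with a log2 fold change of 1.29 (SE 0.21, adjusted p = 0.00203). Pdk3, an X-linked gene, stood at 25.6, 16.0 and 15.1 CPM with PBS and 34.8, 36.5 and 46.5 CPM with WGP, with a log2 fold change of 1.05 (SE 0.26, adjusted p = 0.0208). The call of Pdk3 was lost without PBS 2, PBS 3 or WGP 3 (adjusted p between 0.0631 and 0.0943) and with the Y-linked counts as a covariate (log2 fold change 0.62, adjusted p = 0.234).

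In the pentose phosphate pathway 4 of 7 genes rose, and 1 of them, Pgd, rose at least 2-fold. Without PBS 2, WGP 1 or WGP 3 only Pgd rose, and with the Y-linked counts as a covariate 2 genes did. The oxidative branch makes NADPH. Its entry enzyme gene G6pdx stood at 135, 136 and 173 CPM with PBS and 237, 230 and 236 CPM with WGP, with a log2 fold change of 0.66 (SE 0.15, adjusted p = 0.0128). Pgd, which makes the second NADPH, stood at 229, 220 and 195.9 CPM with PBS and 460, 489 and 462 CPM with WGP, with a log2 fold change of 1.13 (SE 0.14, adjusted p = 0.000382). Pgls, the lactonase between them, stood at 53.8, 50.3 and 44.8 CPM against 49.1, 56.1 and 58.1 CPM, with overlapping groups (log2 fold change 0.13, SE 0.17, adjusted p = 0.671). G6pdx is X-linked, and it missed the threshold without PBS 2, WGP 1 or WGP 3 (adjusted p 0.0742, 0.0501 and 0.0533).

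The non-oxidative branch passes carbon between pentoses and glycolytic sugars. Taldo1, transaldolase, stood at 218, 187 and 144 CPM with PBS and 313, 284 and 300 CPM with WGP, and rose by 0.71 on the log2 scale (SE 0.17, adjusted p = 0.0187). Rpe, an epimerase, stood at 19.4, 17.9 and 23.1 CPM against 37.3, 36.1 and 32.8 CPM, and rose by 0.81 (SE 0.21, adjusted p = 0.0241). Tkt, transketolase, stood at 425, 374 and 311 CPM with PBS and 563, 485 and 526 CPM with WGP. The groups of Tkt did not overlap, but its log2 fold change of 0.50 (SE 0.16) missed the threshold (adjusted p = 0.0609), and it passed with DESeq2 (adjusted p = 0.0106), with limma-voom (0.0455) and without PBS 1 (0.0168). Rpia, an isomerase, stood at 36.1, 18.6 and 16.6 CPM against 32.6, 21.4 and 26.1 CPM, with no change past the test (log2 fold change 0.17, SE 0.32, adjusted p = 0.8). The call of Taldo1 was lost in 6 of 16 alternative fits and that of Rpe in 5, with adjusted p up to 0.189 and 0.0987. Both losses included the fits without PBS 2, WGP 1 or WGP 3, that of Taldo1 also the fit without PBS 3, and that of Rpe also the fit without WGP 2.

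The position of the members by level changed as well. Per kilobase of exon, Aldoa, Pkm and Gapdh were the 3 highest members in both groups, and remained so per kilobase of the longest coding transcript, where Gapdh was first with PBS and Aldoa first with WGP. Tpi1 moved from rank 12 to 5, Hif1a from 16 to 10 and Pfkl from 29 to 20. Slc2a3 moved from rank 25 to 37, Tkt from 7 to 17 and Pfkfb4 from 15 to 27, none of the 3 with a change past the test in its own level. Per kilobase of the longest coding transcript these moves kept their direction but some were smaller, with Tpi1 from 11 to 6, Mif from 15 to 10 and Tkt from 6 to 11. Within the WGP group, no single library carried the module, since WGP 1 was the highest of the 3 for 11 members, WGP 2 for 18 and WGP 3 for 11, the second Aldoa entry being at 0 in each. Within the PBS group, PBS 1 was the highest for 22 members, PBS 2 for 9 and PBS 3 for 10. Leaving out any 1 library left between 26 and 32 members that rose.

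The rest of these pathways, read from 7 lists of 119 further genes of which 103 could be tested, moved less as a whole. Of these 103 genes, 17 rose (16.5%, where 7.54% of all genes tested rose) and 4 fell (3.88%, where 6.81% of all genes tested fell). Their median log2 fold change was 0.14, beside 1.29 for the members. The difference between the 2 sets was not tested, and both were drawn up with earlier results of these data known.

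Among 28 other hypoxia targets, 8 rose and 0 fell past the test, with a median log2 fold change of 0.22. Only 4 rose without WGP 3, where Ak4, Ankrd37, Fam162a and Higd1a were lost, and 5 without WGP 1 or in the fit that accounts for Y-linked counts. Adm, which encodes adrenomedullin, was at 57.7, 10.2 and 3.35 CPM with PBS and 0.326, 3.09 and 0 CPM with WGP. Its log2 fold change was -4.38 (adjusted p = 0.0702), and it became a lower call without PBS 3, without WGP 2, with the replicate block and in the fit that accounts for Y-linked counts (adjusted p between 0.0126 and 0.0456). Vegfa, the angiogenic growth factor, stood at 36.6, 22.7 and 11.8 CPM with PBS and 230, 132 and 108 CPM with WGP, and its log2 fold change was 2.73 (SE 0.41, adjusted p = 0.00133). Ero1l, an oxidase of the endoplasmic reticulum, rose by 1.79 (SE 0.27) and Hilpda, a lipid droplet protein, by 1.71 (SE 0.33). Narf had the smallest p of the list and rose by 1.40 (SE 0.17, adjusted p = 0.000419). Of 13 other components of the HIF pathway, 1 rose. It was Vhl, which encodes the ubiquitin ligase subunit that recognises hydroxylated HIF-1α, with a log2 fold change of 1.01 (SE 0.20, adjusted p = 0.00672), a call lost in the fit that accounts for Y-linked counts (0.81, adjusted p = 0.0808). Cited2, Cul2 and Egln2 came next by p and did not pass, with log2 fold changes of 0.37, 0.59 and -0.40.

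Among 17 other glycolytic isoenzymes and regulators, 2 rose and 1 fell. Gpd2, the mitochondrial glycerol 3-phosphate dehydrogenase, stood at 39.2, 43.3 and 29.1 CPM with PBS and 114, 148 and 95.0 CPM with WGP, and rose by 1.68 (SE 0.21, adjusted p = 0.000524). Pgm1, which links glucose 1-phosphate to glycolysis, rose by 1.45 (SE 0.28), a call lost in the fit that accounts for Y-linked counts (1.36, adjusted p = 0.0652). Eno3, the muscle enolase, fell by 1.00 (SE 0.27, adjusted p = 0.0321), a call that was lost in each of the 6 fits without 1 library (adjusted p between 0.0528 and 0.0977). Of 11 other transporters 1 rose, Mpc1, a subunit of the mitochondrial pyruvate carrier (log2 fold change 1.17, SE 0.27, adjusted p = 0.0151), and this call was lost without PBS 2, WGP 1 or WGP 3 (adjusted p between 0.0509 and 0.0676) and in the fit that accounts for Y-linked counts (1.14, adjusted p = 0.106). Of these transporters 0 fell, but Slc16a7 became a lower call with DESeq2, by library totals and without PBS 1 (adjusted p between 0.00254 and 0.0397). Of 10 genes of the pyruvate dehydrogenase complex and its regulators, Pdk2 and Pdk4 among them, 0 passed the test in either direction. The smallest adjusted p there was 0.0868, for Pdpr.

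Glycogen genes held changes in both directions. Of 16 gluconeogenic and glycogen enzyme genes, 3 rose and 2 fell. Gys1, glycogen synthase, rose by 1.87 (SE 0.30), Gyg, the primer of glycogen, by 1.31 (SE 0.19) and Pygl, the liver form of glycogen phosphorylase, by 1.19 (SE 0.17). Pygb, the brain form, fell by 0.78 (SE 0.16, adjusted p = 0.00913), and Pygm, the muscle form, named here after its values were seen, fell by 2.62 (SE 0.60, adjusted p = 0.0154), a call lost with limma-voom (-2.57, adjusted p = 0.0964) and without PBS 2 (-2.46, adjusted p = 0.0768). Of 9 other pentose and ribose genes, Idnk rose by 1.42 (SE 0.18) and H6pd, which starts an oxidative pentose pathway inside the endoplasmic reticulum, by 0.84 (SE 0.17), while Prps2, which turns ribose phosphate into the precursor of nucleotides, fell by 1.197 (SE 0.23, adjusted p = 0.00621). Without WGP 2, Prps1 was a second lower call (-1.31, adjusted p = 0.043).

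**Figure D5:**
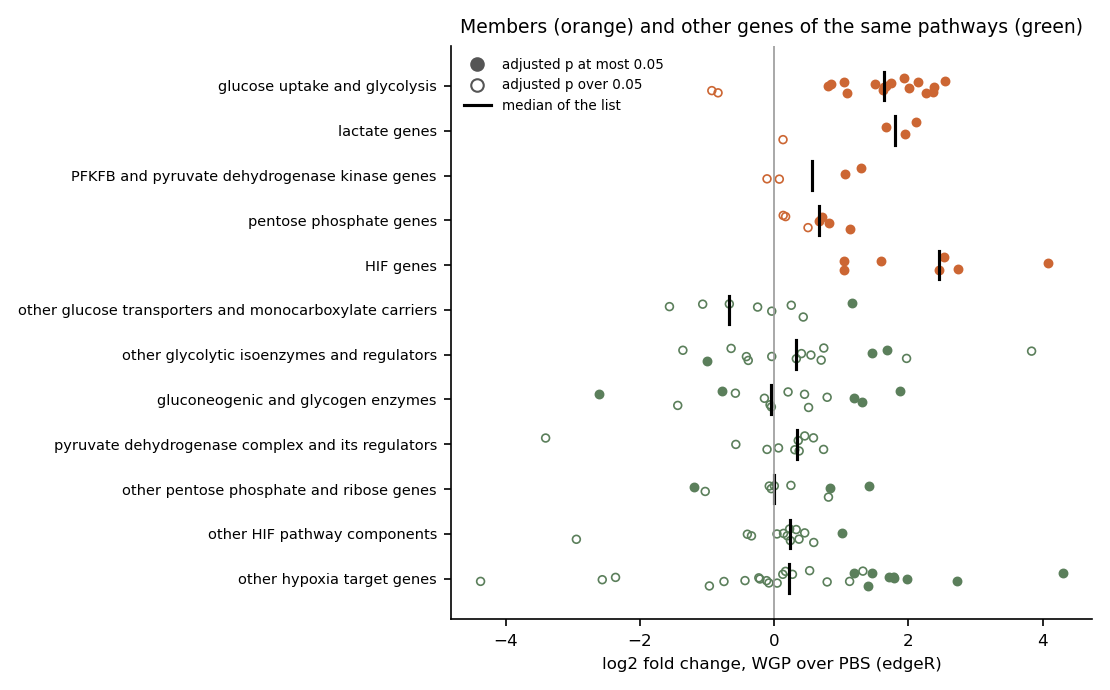
Log2 fold change (WGP over PBS, x axis) of the members by section (orange) and of other genes of the same pathways by list (green), with filled points for genes past the test and black bars for medians; genes with 0 counts in every library of a group are not drawn, but stand in the medians at a bound set by 3 counts per library. The orange medians lie between 0.56 and 2.46 and the green ones between -0.67 and 0.33.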

How the data were processed

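CD45+CD11b+ pancreatic cells of 3 PBS and 3 WGP libraries were compared. Per the labels and the study's methods, the authors aligned single-end reads of 75 bases with STAR 2.6 to mm10 and made raw counts per gene with HTSeq 0.10.0. The deposited counts were used as they stand; annotation release, strand setting and treatment of multiply matching reads are not given in the sources used here, so a gene and an antisense partner may not be told apart (14 members overlap exons on the opposite strand).

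Protein-coding genes with at least 10 normalized counts summed over the 6 libraries (14429) were tested with edgeR 4.0.16 (TMM scaling, quasi-likelihood test, Benjamini-Hochberg over all genes tested), in R 4.3.3. DESeq2 1.42.0 and voom from limma 3.58.1 were alternatives, and the fits were tested on simulated data. A gene rose or fell at an adjusted p of at most 0.05. Levels are TMM-scaled CPM, mean ± SD (n = 3), and levels per kilobase divide by the union of GENCODE exons. P-values judge the difference between the groups against the spread between these libraries. No libraries of a group held the same counts. Named genes of other lists are up to 4 per list with the smallest p. Pygm, Pdk2, Pdk4 and the hypoxia targets Adm, Higd1a, Fam162a, Ankrd37 and Ak4 were added after their values were seen. The members and lists were chosen with earlier results of these data known. Same-numbered libraries did not vary together (correlations of 0.0027, -0.0446 and 0.0105), so replicate numbers were not used as pairs.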

Additional observations from a re-analysis of the deposited data

How the results depend on the processing

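Of the 40 members with a value in each of 16 alternative fits (all but the second Aldoa entry), 27 kept their side of the threshold and their direction in each. Between 26 and 33 members rose. Leaving out 1 library gave 26 to 32 members that rose, 24 to 26 that rose at least 2-fold, 0 to 1 that fell and 0 to 1 that fell at least 2-fold, and of the other pathway genes 12 to 17 that rose, 11 to 16 that rose at least 2-fold, 2 to 5 that fell (2 without PBS 2) and 1 to 4 that fell at least 2-fold (1 without PBS 2). The member that fell without PBS 3, with DESeq2 (1 member) and with the Y-linked counts as a covariate (1 member, also 1 at 2-fold) was Slc2a3. With that covariate, which leaves PBS 1 as the only PBS library like the WGP libraries, 27 members rose, as Hk2 (log2 fold change 1.08, adjusted p = 0.0683), Ldhb (1.24, 0.209), Pdk3 (0.62, 0.234), Rpe (0.87, 0.0917) and Taldo1 (0.45, 0.189) were lost. Of the other pathway genes 12 then rose and 5 fell at least 2-fold. Scaling by library totals alone moved the median log2 fold change of all genes from -0.05 to -0.16, and 31 members then rose, 22 of them at least 2-fold. With the replicate number as a block, 32 members rose, 27 at least 2-fold, and 0 fell, and the block ended the calls of Eno3 (adjusted p = 0.053) and Higd1a (1.21, adjusted p = 0.0743), so that 16 other pathway genes rose, and of no member, and added a lower call for Adm (adjusted p = 0.0283).

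Signs turned only for log2 fold changes that had not passed the test and for the shares of Pfkfb3 and Pfkfb4. No share could pass a test, as the permutation p cannot go below 0.1. With the Y-linked counts, the log2 fold change was -0.26 for Slc16a1, -0.43 for Rpia and 0.089 for Slc2a8, and by library totals it was -0.021 for Pfkfb3. Without 1 library it ranged from -0.21 to 0.37 for Slc16a1, -0.061 to 0.24 for Pfkfb3, -0.29 to 0.10 for Pfkfb4 and -0.031 to 0.60 for Rpia. Without 1 library, the difference in family share (WGP minus PBS, in percentage points) ranged from -1.59 to 6.52 for Pfkfb3 and from -6.52 to 1.59 for Pfkfb4, both turning without WGP 2, and it kept its sign for the other families. It ranged from 4.55 to 12.8 for Slc2a1, -5.64 to -4.32 for Hk1, 26.1 to 31.9 for Pfkl, 0.13 to 0.62 for Aldoa, -1.90 to -0.17 for Ldha, -11.2 to -8.45 for Slc16a1 and 1.56 to 5.19 for Pdk1. The causes of these changes were not tested.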
